A study of Homo sapiens with 12 samples.

Results

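The anaphase-promoting complex and the proteins that switch it on and off were followed through 10 of the 14828 genes in the deposited expression table of 22Rv1 cells. The genes were taken by symbol from a list of names that holds the activators CDC20 and FZR1, the ubiquitin-conjugating enzymes UBE2C and UBE2S, the inhibitor FBXO5, the substrate securin PTTG1 and the core subunits CDC16, CDC27, ANAPC1 and ANAPC11. All 10 were in the table and passed the filter on low values. 22Rv1 is a human prostate carcinoma cell line, and the study asked how its transcripts change when CENPA, the histone H3 variant that marks centromeres, is depleted. The cells stably carried a doxycycline-inducible lentiviral vector with a non-targeting shRNA (shNT) or one of a pair of shRNAs against CENPA (shCENPA1 and shCENPA2). All 3 groups, shNT included, received doxycycline at 2 µg/ml for 72 h, so that vector and drug were common to all. Each group had 2 libraries, each run in 2 lanes that were averaged here, and nothing in the sources used here says that the libraries of a group came from separate cultures. The p-values below therefore measure the spread between these libraries, which may be technical.

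The anaphase-promoting complex is a large E3 ubiquitin ligase that marks mitotic proteins for destruction. CDC20 activates it at the metaphase to anaphase transition, where it destroys securin and cyclin B, and FZR1 (CDH1) activates it in late mitosis and G1. UBE2C places the first ubiquitins and UBE2S extends the chain, while FBXO5 (EMI1) blocks the complex in S and G2 phase. The mRNAs of CDC20, UBE2C, FBXO5 and PTTG1 are known to rise and fall through the cell cycle, whereas the core subunits are expressed more evenly.

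Levels are given as log2 RPKM, reads scaled to gene length and library size. They can be compared between libraries, and between genes only as far as the gene lengths used hold. A gene passed the test when its adjusted p in limma, a linear model fitted over the 14624 genes kept, was under 0.05, and it was called when its log2 fold change also lay beyond 1. Libraries held 79172294 to 133074655 reads on genes. CENPA itself was at 2.46 and 2.18 log2 RPKM in the shNT libraries, at 0.50 and 0.58 with shCENPA1 and at -0.47 and -0.41 with shCENPA2, so that the knockdown libraries held 29.1% and 14.7% of the shNT level. All 9 luminal prostate markers were in the table, with KLK3 at only -2.17 to -0.48 log2 RPKM, and their summed RPKM was 904 to 935 with shNT, 907 to 950 with shCENPA1 and 949 to 952 with shCENPA2. Of 7 markers of blood, fibroblast, endothelial and basal cells 1 was in the table, COL1A1, with a summed RPKM of 0.950 to 1.30 over all libraries, and no library went against its label.

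With CENPA depleted, the mRNA of most regulators of the complex was lower, and no core subunit passed the test. Of the 10 genes, 4 fell with shCENPA1 (CDC20, UBE2C, FBXO5 and PTTG1) and 5 fell with shCENPA2 (the same 4 and UBE2S), and none rose. Among all genes tested, 4.45% fell and 2.69% rose with shCENPA1, and 10.5% fell and 8.05% rose with shCENPA2. Of the 10, 2 were called lower with shCENPA1, where 1.83% of all genes were, and 4 with shCENPA2, where 4.45% of all genes were. Both comparisons share the shNT libraries, so their values are given side by side and not as independent repeats. In RNA from whole cultures, fewer cells that express a gene and less RNA per cell cannot be told apart.

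**Figure D1:**
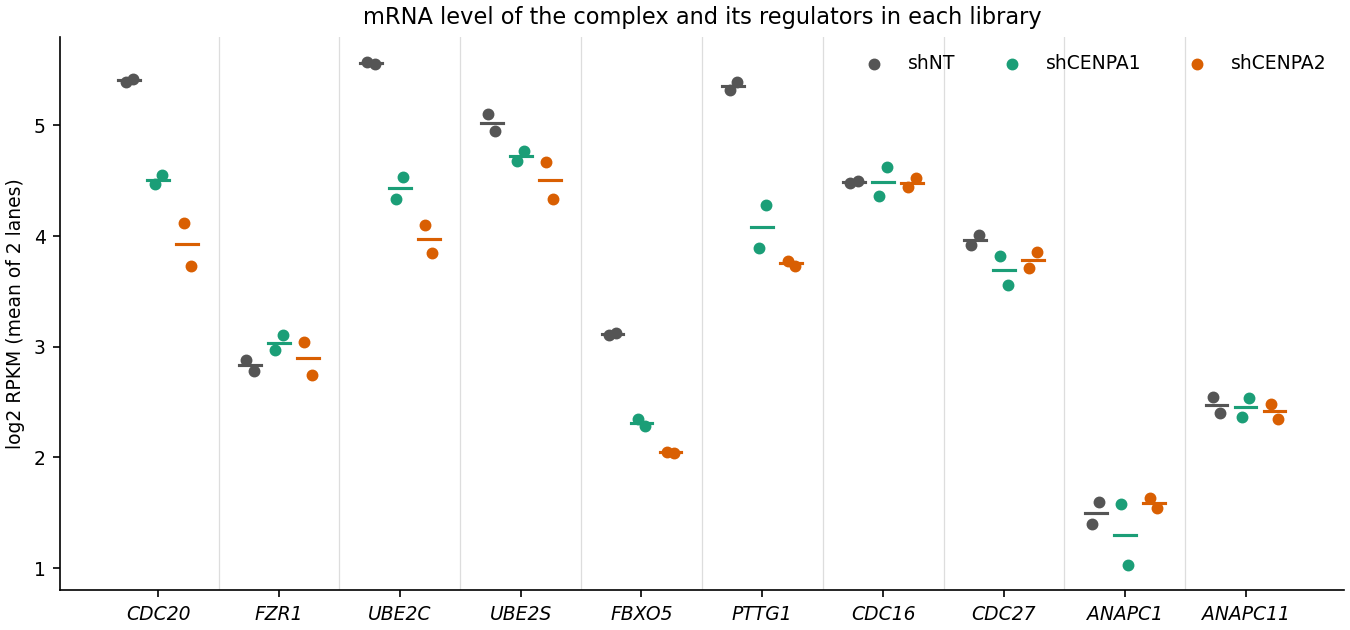
Level of each of the 10 genes (log2 RPKM, mean of 2 lanes) in the 6 libraries, with shNT in grey, shCENPA1 in green and shCENPA2 in orange. Points are libraries and bars are group means. For CDC20, UBE2C, UBE2S, FBXO5, PTTG1 and CDC27 the 4 knockdown libraries all lie below both shNT libraries, and for FZR1, CDC16, ANAPC1 and ANAPC11 the range of the knockdown libraries overlaps that of the controls.

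In the controls the mRNAs of UBE2C, CDC20, PTTG1 and UBE2S were the most abundant of the 10. In the shNT libraries the mean RPKM was 47.4 for UBE2C, 42.5 for CDC20, 41.1 for PTTG1 and 32.5 for UBE2S. It was 22.5 for CDC16, 15.6 for CDC27, 8.68 for FBXO5, 7.13 for FZR1, 5.55 for ANAPC11 and 2.82 for ANAPC1. No neighbours in this order overlapped between the 2 shNT libraries, but CDC20 and PTTG1 nearly touched. The lowest CDC20 value was 5.39698 log2 RPKM and the highest of PTTG1 5.39673. That gap is smaller than the differences between lanes given below, so the order of these genes is not resolved. Each value rested on 1315 or more reads per library, a number reached by FBXO5 in its lowest library, and CDC27 reached 14146 in its highest. The lanes of a library differed by at most 0.13 on the log2 scale for any of the 10.

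The promoters of the genes that fell were set beside those of the genes that did not pass the test. The CHR (TTTGAA or TTTAAA) and the CCAAT box are short elements known from the promoters of cell cycle genes, and both were searched on both strands in the 150 bases upstream of each RefSeq start (GRCh38.p14). Start sites were found for 9 of the 10 genes, all but UBE2C. The sequences below run 5′ to 3′ along the strand of the gene and end at the base before the start. Capitals mark CHR and CCAAT letters on either strand. CDC20, PTTG1 and FBXO5 are shown because they fell with both shRNAs, and FZR1 and CDC16 because they did not pass the test. The windows are chr1:43358831-43358980 (plus strand) for CDC20, chr5:160421705-160421854 (plus) for PTTG1, chr6:152983042-152983191 (minus, the downstream of 2 starts) for FBXO5, chr19:3506161-3506310 (plus) for FZR1 and chr13:114234747-114234896 (plus) for CDC16.
CDC20: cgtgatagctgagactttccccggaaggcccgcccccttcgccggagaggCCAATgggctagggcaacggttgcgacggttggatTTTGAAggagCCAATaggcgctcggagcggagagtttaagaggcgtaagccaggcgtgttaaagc
PTTG1: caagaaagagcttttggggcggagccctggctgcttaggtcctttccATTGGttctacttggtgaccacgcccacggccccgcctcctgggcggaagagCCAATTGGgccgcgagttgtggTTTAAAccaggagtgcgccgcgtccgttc
FBXO5: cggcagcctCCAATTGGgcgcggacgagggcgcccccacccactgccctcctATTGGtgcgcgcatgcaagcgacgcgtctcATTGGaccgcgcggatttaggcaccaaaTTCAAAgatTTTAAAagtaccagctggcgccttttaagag
FZR1: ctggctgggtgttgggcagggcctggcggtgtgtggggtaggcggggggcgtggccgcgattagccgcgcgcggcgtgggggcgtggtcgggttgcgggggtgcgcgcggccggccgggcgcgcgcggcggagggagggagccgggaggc
CDC16: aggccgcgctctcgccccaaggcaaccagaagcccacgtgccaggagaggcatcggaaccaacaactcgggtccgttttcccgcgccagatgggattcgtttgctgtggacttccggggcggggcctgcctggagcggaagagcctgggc

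CDC20, PTTG1 and FBXO5 each held a CHR and a CCAAT box within 1 window, 3 of the 9 genes matched. Of the 35116 promoter windows in the table, 12.6% held a CHR, 23.5% a CCAAT box and 3.25% both. These shares are per window, whereas the 9 genes were counted by gene over 15 starts, so the units differ. The upstream start of FBXO5 held neither. UBE2S, which fell with shCENPA2, and FZR1, CDC16, CDC27 and ANAPC1 held neither element at any start, and ANAPC11 held a CCAAT box only. TTTAAA reads the same on both strands and was counted once, and CCAATTGG in PTTG1 and FBXO5 holds a CCAAT box on each strand over shared letters. A match describes these letters only, and the genes are too few to read a difference from it.

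Positions of the genes below are those of the GENCODE annotation on GRCh38. CDC20 (chr1:43358981-43363203, plus strand), the activator that also receives the spindle checkpoint's stop signal, was at 5.40 and 5.42 log2 RPKM in the shNT libraries, at 4.47 and 4.55 with shCENPA1 and at 4.12 and 3.73 with shCENPA2. The 3 groups did not overlap, with shCENPA2 the lowest. CDC20 fell with shCENPA1 (log2 fold change -0.90, SE 0.12, limma adjusted p = 0.00222) and with shCENPA2 (-1.48, SE 0.12, adjusted p = 5.81e-05), to 53.6% and 35.8% of the shNT level.

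FZR1 (chr19:3506311-3538334, plus strand), the activator of late mitosis and G1, was at 2.88 and 2.79 log2 RPKM with shNT, at 2.97 and 3.10 with shCENPA1 and at 3.04 and 2.75 with shCENPA2. The shCENPA1 libraries lay above both controls, and the shCENPA2 libraries lay on either side of them. The log2 fold change was 0.20 with shCENPA1 (95% interval -0.07 to 0.48, limma adjusted p = 0.378) and 0.06 with shCENPA2 (-0.22 to 0.34, adjusted p = 0.773). An increase of 0.48 in log2 with shCENPA1 is thus not excluded, and a fall of the size of that of CDC20 is outside both intervals.

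UBE2C (chr20:45812576-45816957, plus strand), the enzyme that starts the ubiquitin chain, was at 5.57 and 5.56 log2 RPKM with shNT, at 4.34 and 4.54 with shCENPA1 and at 4.10 and 3.84 with shCENPA2. It went from the highest RPKM of the 10 with shNT to 21.7 RPKM with shCENPA1 and 15.7 RPKM with shCENPA2. Its mean was below those of CDC16 and UBE2S in both. With shCENPA1 its libraries overlapped those of CDC16 (4.36 and 4.63 log2 RPKM), so the order of these genes is not resolved there. UBE2C fell with shCENPA1 (log2 fold change -1.13, SE 0.11, limma adjusted p = 0.00044) and with shCENPA2 (-1.59, SE 0.11, adjusted p = 2.5e-05).

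UBE2S (chr19:55399745-55407788, minus strand), which lengthens the chain that UBE2C begins, was at 5.10 and 4.95 log2 RPKM with shNT, at 4.68 and 4.77 with shCENPA1 and at 4.67 and 4.34 with shCENPA2. All 4 knockdown libraries were below both controls, by less than for UBE2C. The log2 fold change with shCENPA1 was -0.30 (95% interval -0.57 to -0.03) and did not pass the test after adjustment (limma adjusted p = 0.18). With shCENPA2 UBE2S fell as well (log2 fold change -0.52, SE 0.12, adjusted p = 0.015), to 69.7% of shNT. That UBE2S passed rested on single libraries. The log2 fold change was -0.44 without the first shNT library and -0.35 without the second shCENPA2 library, and UBE2S passed in neither case.

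FBXO5 (chr6:152970519-152983579, minus strand), the inhibitor that keeps the complex off while DNA is replicated, was at 3.11 and 3.12 log2 RPKM with shNT, at 2.35 and 2.28 with shCENPA1 and at 2.05 and 2.04 with shCENPA2. The libraries of each group lay close together, and the groups did not overlap. FBXO5 fell with shCENPA1 (log2 fold change -0.80, SE 0.10, limma adjusted p = 0.00174) and with shCENPA2 (-1.07, SE 0.10, adjusted p = 0.000144), to 57.4% and 47.6% of shNT.

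PTTG1 (chr5:160421855-160428739, plus strand), securin, holds separase inactive until the complex destroys it. It was at 5.32 and 5.40 log2 RPKM with shNT, at 3.89 and 4.28 with shCENPA1 and at 3.78 and 3.73 with shCENPA2. PTTG1 fell with shCENPA1 (log2 fold change -1.27, SE 0.12, limma adjusted p = 0.000383) and with shCENPA2 (-1.60, SE 0.12, adjusted p = 4.12e-05), to 41.3% and 32.9% of shNT. PTTG1 has near-identical copies elsewhere in the genome, and UBE2C, UBE2S, CDC27 and ANAPC1 have pseudogenes, so reads shared with them make these levels uncertain. Copies named for CDC20, FBXO5 and ANAPC11 were looked for too, and the same uncertainty applies to these genes. Of 15 such copies looked for by name 1, UBE2SP1, was in the table. It was at a log2 fold change of -0.01 with shCENPA1 and -0.89 with shCENPA2 and passed in neither (limma adjusted p = 0.996 and 0.127).

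**Figure D2:**
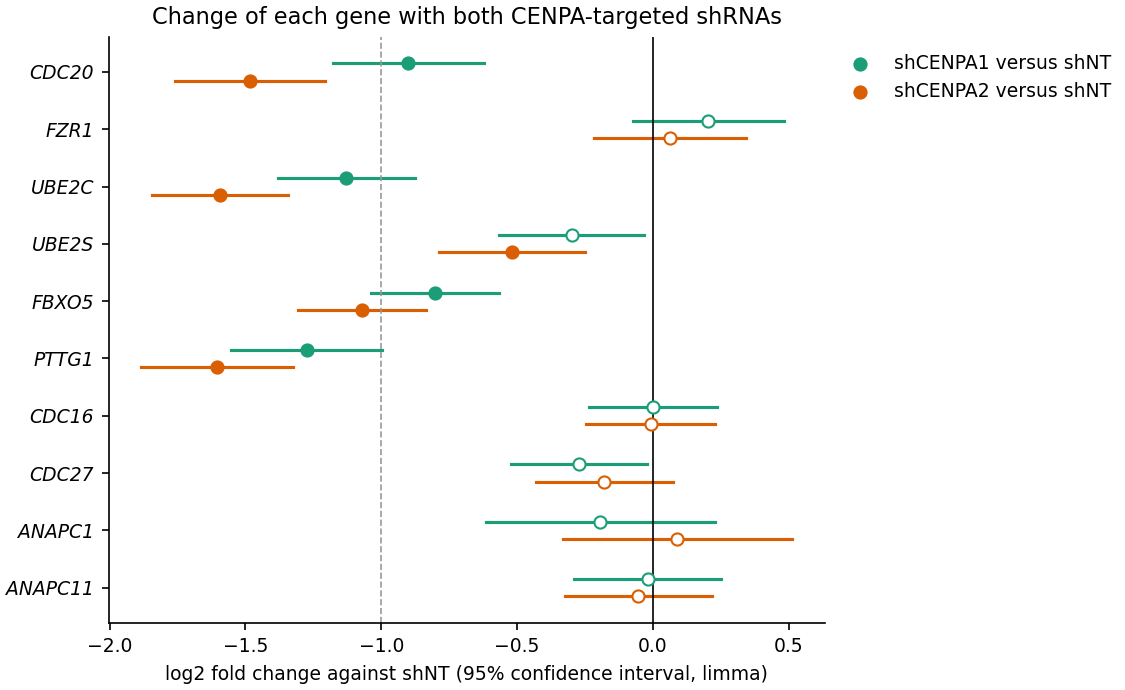
Log2 fold change against shNT of each gene with shCENPA1 (green) and shCENPA2 (orange), with 95% confidence intervals from limma. Filled points have an adjusted p under 0.05 and the dashed line marks a log2 fold change of -1. PTTG1, UBE2C, CDC20 and FBXO5 lie at -0.80 to -1.60, and the intervals of FZR1, CDC16, ANAPC1 and ANAPC11 span 0.

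None of the 4 core subunits passed the test with either shRNA. CDC16 (APC6, chr13:114234887-114272723, plus strand), a scaffold subunit of the arm that binds the activators, was at 4.48 and 4.50 log2 RPKM with shNT, at 4.36 and 4.63 with shCENPA1 and at 4.44 and 4.53 with shCENPA2. Its knockdown libraries lay on either side of the controls in both groups. The log2 fold change was 0.0011 with shCENPA1 (95% interval -0.24 to 0.24, limma adjusted p = 0.997) and -0.0084 with shCENPA2 (-0.24 to 0.23, adjusted p = 0.967).

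CDC27 (APC3, chr17:47117703-47189422, minus strand), to which CDC20 and FZR1 dock, was at 3.92 and 4.01 log2 RPKM with shNT, at 3.82 and 3.56 with shCENPA1 and at 3.71 and 3.85 with shCENPA2. All 4 knockdown libraries were below both controls, but neither difference passed the test after adjustment over all genes. The log2 fold change was -0.27 with shCENPA1 (95% interval -0.52 to -0.02, limma adjusted p = 0.191) and -0.18 with shCENPA2 (-0.43 to 0.07, adjusted p = 0.313).

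ANAPC1 (APC1, chr2:111611639-111884690, minus strand), the largest scaffold subunit, was the lowest of the 10, at 1.40 and 1.60 log2 RPKM with shNT, at 1.58 and 1.03 with shCENPA1 and at 1.63 and 1.54 with shCENPA2. The second shCENPA1 library stood below the other 5. The log2 fold change was -0.19 with shCENPA1 (95% interval -0.62 to 0.23, limma adjusted p = 0.593), or 0.08 without that library, and 0.09 with shCENPA2 (-0.33 to 0.51, adjusted p = 0.785).

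ANAPC11 (APC11, chr17:81890790-81900991, plus strand), the RING subunit that receives the charged conjugating enzyme, was at 2.54 and 2.40 log2 RPKM with shNT, at 2.37 and 2.54 with shCENPA1 and at 2.49 and 2.35 with shCENPA2. The 3 groups covered the same range. The log2 fold change was -0.02 with shCENPA1 (95% interval -0.29 to 0.25, limma adjusted p = 0.947) and -0.05 with shCENPA2 (-0.33 to 0.22, adjusted p = 0.798). Of its exonic bases 6.13% are shared with NPB on the same strand, and for ANAPC1 2.34% are shared with an unnamed gene.

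Of the other 10 core subunits of the complex, 0 passed with either shRNA in limma. Their log2 fold changes ran from -0.07 to 0.18 with shCENPA1, with a median of 0.02, and from -0.20 (ANAPC10) to 0.11 (ANAPC2, the cullin subunit) with shCENPA2, with a median of -0.06. The medians over all genes tested were 0.0030 and 0.012. Averaged over all 14 core subunits, the level was 3.39 and 3.41 log2 RPKM with shNT, 3.33 and 3.42 with shCENPA1 and 3.37 and 3.32 with shCENPA2. The shCENPA1 libraries lay on either side of the controls and the shCENPA2 libraries just below them.

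The proportions between the regulators therefore moved within each library. These ratios were formed within a library and are given as a description, without a test. The log2 ratio of CDC20 to FZR1, the 2 activators that hand the complex over from metaphase to G1, was 2.51 and 2.64 with shNT, 1.49 and 1.45 with shCENPA1 and 1.08 and 0.99 with shCENPA2. CDC20 mRNA was thus 5.96 times as abundant as FZR1 in the controls, 2.77 times with shCENPA1 and 2.04 times with shCENPA2. The log2 ratio of UBE2C to UBE2S, the initiating against the elongating enzyme, was 0.47 and 0.61 with shNT, -0.34 and -0.23 with shCENPA1 and -0.57 and -0.49 with shCENPA2. In RPKM UBE2C was above UBE2S in both controls and below it in all 4 knockdown libraries. In reads, which are not scaled to gene length, UBE2C was below UBE2S in both controls too (6628 against 10343 and 5127 against 7265). The crossing thus rests on the gene lengths used, and which mRNA was more abundant in the controls is not resolved. The shift of the ratio does not depend on these lengths.

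The log2 ratio of the inhibitor FBXO5 to the activator FZR1 was 0.23 and 0.34 with shNT, -0.63 and -0.82 with shCENPA1 and -0.99 and -0.71 with shCENPA2. In RPKM this pair also changed order, while the knockdown groups overlapped each other. In reads FBXO5 was below FZR1 in both controls too (3582 against 5995 and 2824 against 4378). This crossing thus also rests on the gene lengths used. Against the mean of the 14 core subunits, CDC20 was higher by 2.01 and 2.02 with shNT, by 1.13 and 1.13 with shCENPA1 and by 0.75 and 0.41 with shCENPA2. The ratio of PTTG1 to ESPL1, securin against the separase it holds, was 3.33 and 3.38 with shNT, 3.07 and 3.43 with shCENPA1 and 2.93 and 3.30 with shCENPA2. Here the shCENPA1 libraries lay on either side of the controls and the shCENPA2 libraries below them, with PTTG1 10.2, 9.52 and 8.65 times as abundant as ESPL1.

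**Figure D3:**
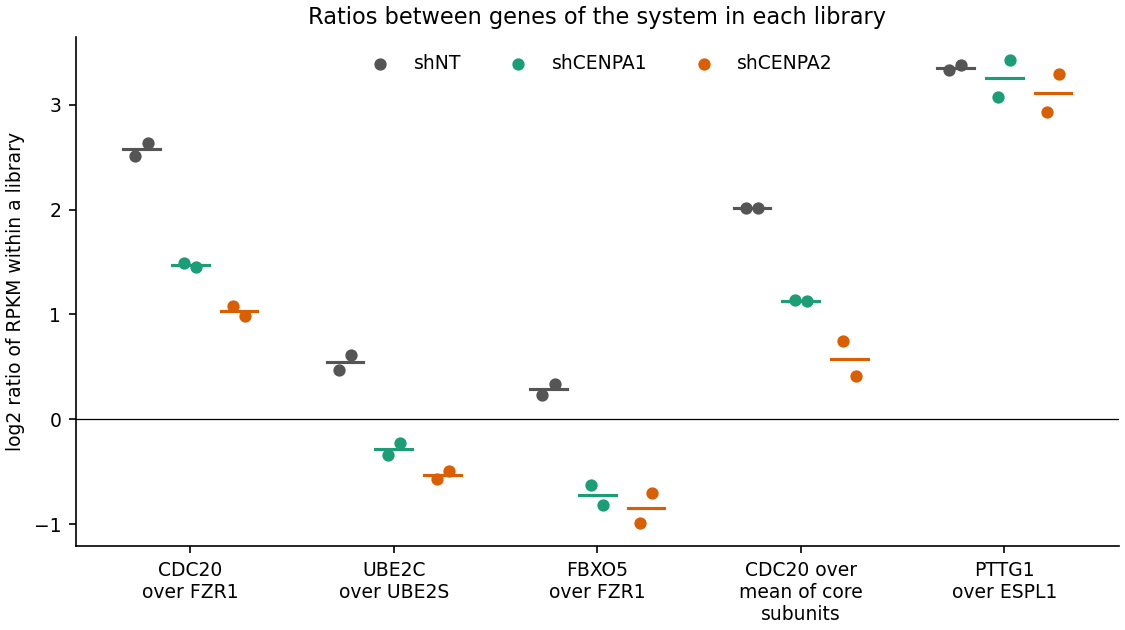
Log2 ratio of RPKM between named genes within each library (points, with bars for group means) for shNT (grey), shCENPA1 (green) and shCENPA2 (orange). CDC20 over FZR1 goes from 2.51 and 2.64 to 1.08 and 0.99. UBE2C over UBE2S and FBXO5 over FZR1 cross 0, and these crossings rest on the gene lengths used in RPKM. For PTTG1 over ESPL1 the shCENPA1 libraries lie on either side of the controls and the shCENPA2 libraries below them.

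The genes that act with the complex were described from lists of names, chosen with earlier results of these data known. Their counts describe the names listed and not all substrates or partners of the complex. Among 30 substrates, proteins that the complex marks for destruction, 29 fell with shCENPA1 and 30 with shCENPA2, none rose, and 23 and 26 were called lower, where 4.45% and 10.5% of all genes fell and 1.83% and 4.45% were called lower. Medians of the log2 fold change were -1.18 and -1.54, beside 0.0030 and 0.012 over all genes. CCNB1 (cyclin B1) fell to log2 fold changes of -1.11 with shCENPA1 and -1.40 with shCENPA2, and GMNN (geminin, which blocks re-licensing of replication origins) fell to -0.63 and -0.81. CLSPN (claspin, an adaptor of the replication checkpoint) was the lowest, at -1.57 and -1.93. KIF22, a kinesin that binds chromosomes, was the highest, at -0.38 with shCENPA1 (limma adjusted p = 0.0716) and, past the test, at -0.65 with shCENPA2.

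Of 9 genes listed as inhibitors of the complex or for their removal, 7 were in the table. Most belong to the spindle checkpoint, which holds CDC20 and the complex in check. The list is not the whole checkpoint: BUB1 (log2 fold changes -1.31 and -1.60) and TTK (-1.34 and -1.58) were counted with the substrates. With shCENPA1 3 of the 7 fell and with shCENPA2 4, where 4.45% and 10.5% of all genes tested did. The median log2 fold changes of the 7 were -0.31 and -0.34. MAD2L1 (MAD2), which binds CDC20, fell with both, to log2 fold changes of -1.10 and -1.77. BUB1B (BUBR1), its partner in the inhibitory complex, fell to -1.36 and -1.56, and TRIP13, the ATPase that remodels MAD2, to -1.24 and -1.71. BUB3 fell to -0.34 with shCENPA2 and was at -0.31 with shCENPA1 (limma adjusted p = 0.0251 and 0.0665). MAD1L1 (MAD1), which recruits MAD2 to kinetochores, was at 0.17 and, as the highest of the list with shCENPA2, at 0.20, and it passed in neither.

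Of separase and 5 subunits of the cohesin ring it cuts, 2 fell with shCENPA1 and 5 with shCENPA2, beside the same 4.45% and 10.5% of all genes. ESPL1 (separase) fell to log2 fold changes of -1.17 and -1.36. RAD21, the cohesin subunit that separase cleaves, was at -0.28 with shCENPA1 and fell to -0.38 with shCENPA2. SMC1A fell to -0.48 and -0.40, and STAG2, at -0.15 and -0.14, did not pass. These counts rested on single libraries: without any 1 of the shNT libraries, the second shCENPA1 library or the first shCENPA2 library, 1 or 2 of the 6 passed in the comparison concerned.

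The fall of UBE2C and UBE2S was set beside other enzymes of their class. Of 31 other ubiquitin-conjugating enzymes tested 1 fell with each shRNA, beside 4.45% and 10.5% of all genes. It was UBE2T, which serves the Fanconi anaemia pathway and fell to log2 fold changes of -0.91 and -1.12. With shCENPA1 none rose, and with shCENPA2 UBE2E2 rose by a log2 value of 0.45 (limma adjusted p = 0.00863). It no longer passed when either shNT library was left out. UBE2V1 was the highest with shCENPA2, at 0.50, and did not pass (adjusted p = 0.242). The medians were 0.08 and 0.03. UBE2C thus had a lower fold change than all 31 with both shRNAs, and UBE2S than 30 of the 31, all but UBE2T.

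Of 9 genes of the SCF ligase, the other large cell cycle E3, 1 fell with each shRNA, where 4.45% and 10.5% of all genes tested did, so that this share is near that of all genes with shCENPA2. It was CCNF (cyclin F), the substrate receptor of an SCF ligase, which fell to -0.56 and -0.58, and without some single libraries (either shNT library in both comparisons) it did not pass. FBXL5 was the highest with shCENPA2, at 0.16. The SCF medians were -0.0039 and -0.087.

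**Figure D4:**
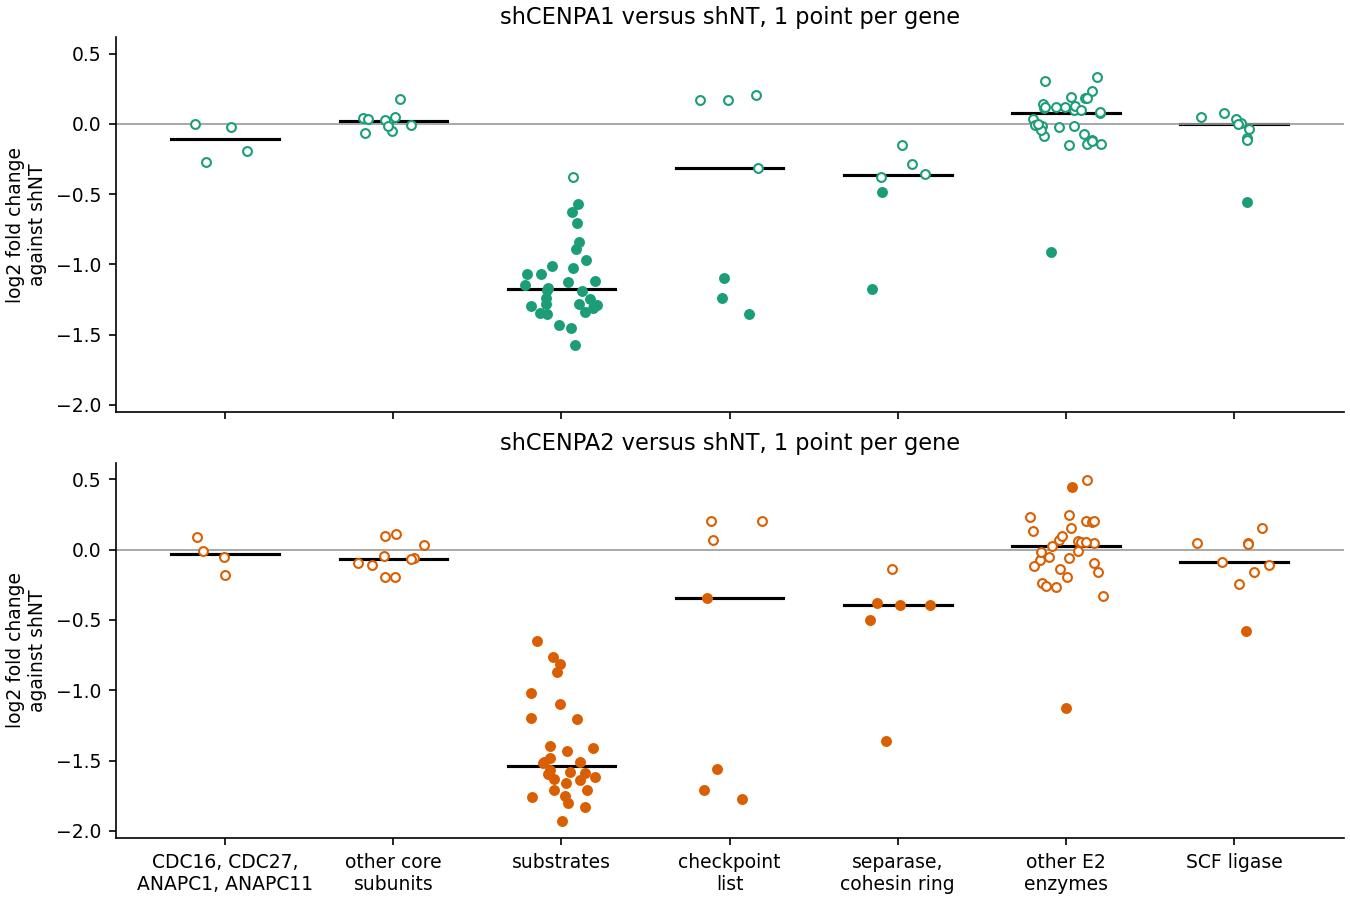
Log2 fold change against shNT of each gene of the lists with shCENPA1 (upper panel) and shCENPA2 (lower panel). Each point is a gene, filled where the adjusted p is under 0.05, and the bars are medians. The 30 substrates have medians of -1.18 and -1.54, while the core subunits, the other conjugating enzymes and the SCF ligase have medians between -0.11 and 0.08.

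Genes whose pattern over the 6 libraries was most like that of a member were ranked by the distance between profiles of log2 RPKM, each taken relative to its own mean over the 6, among 12049 other genes whose mean log2 RPKM was 0 or above. Nearest to CDC20 were KLK4, a kallikrein protease, at a distance of 0.125, then CENPM, ARHGEF39, CENPQ and KIFC1 at 0.164 to 0.205, against a median of 1.57 over all genes. KLK4 was at a log2 fold change of -0.82 with shCENPA1 and -1.45 with shCENPA2. Nearest to UBE2C were CDCA5, FAM64A, TACC3, ASF1B and TYMS at 0.102 to 0.139, against a median of 1.70. Nearest to CDC16 were UFD1L, JTB, SSBP1, PDE6D and MEA1 at 0.0513 to 0.066, against a median of 0.413. These are descriptions over 6 libraries.

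With the shRNAs set against each other, group means were lower with shCENPA2 for CDC20, FZR1, UBE2C, UBE2S, FBXO5 and PTTG1. For FZR1 the libraries of the groups overlapped, and none of the 10 genes passed the test. Over all genes tested, 1.03% were lower with shCENPA2, 0.39% were higher and 0.554% were called lower. CDC20 came nearest, at a log2 difference of -0.58 (95% interval -0.86 to -0.31, limma adjusted p = 0.0594), followed by UBE2C at -0.47 (-0.72 to -0.21, adjusted p = 0.0922), PTTG1 at -0.33 (adjusted p = 0.29) and FBXO5 at -0.27 (adjusted p = 0.307). These 4 had an unadjusted p under 0.05. CDC20 passed under several other settings of the fit, among them with voom on recovered reads (adjusted p = 0.0238) and without the first shCENPA2 library (-0.78, adjusted p = 0.0134). UBE2S was at -0.22 (-0.49 to 0.05) and FZR1 at -0.14 (-0.42 to 0.14).

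For the core subunits the difference between the shRNAs was -0.0095 for CDC16 (95% interval -0.25 to 0.23), 0.09 for CDC27 (-0.16 to 0.35), 0.28 for ANAPC1 (-0.14 to 0.71) and -0.04 for ANAPC11 (-0.31 to 0.24). CENPA itself was lower with shCENPA2 than with shCENPA1 by a log2 difference of -0.98 (limma adjusted p = 0.0209), at 118 to 1186 reads per library, and this did not pass with voom (adjusted p = 0.0778) or without either shCENPA1 library (adjusted p = 0.0908 and 0.212).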

How the data were processed

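The mRNA of 22Rv1 cells with shNT, shCENPA1 or shCENPA2 was sequenced (stranded mRNA libraries, paired-end), and the authors used Trim Galore for trimming, STAR with hg38 for alignment, HTSeq for counting and edgeR for their tests. Versions are not given in the sources used here. The table that the authors deposited holds a log2 RPKM value for each of 14828 genes in each of 12 runs, and every run was used. Steps between the deposited values gave whole reads for 14828 of 14828 genes (largest distance from a whole read 2.4e-08), after a prior of 0.25 reads, and these gave the depth.

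Lanes of a library were averaged, since between lanes the counts differed little more than sampling noise (mean chi-square per gene 1.24 to 1.31, against 26.5 to 80.1 between libraries of a group). The 14624 genes whose mean log2 RPKM reached -3 entered a limma fit (version 3.58.1, R 4.3.3, lmFit, then eBayes with a variance trend) of all 6 libraries, without covariates, and p-values of the contrasts were adjusted by Benjamini-Hochberg over these genes. The fit was tested on simulated data. The edgeR test of the study was not repeated. The main fit used the deposited log2 RPKM, and voom on the recovered reads was an alternative. Fold changes are differences of mean log2 RPKM.

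The genes, lists and tests were chosen with earlier results of these data known. All 10 genes are named, and of each list at most 4, the lowest and the highest with shCENPA2 and any that the text explains. Beyond this rule, BUB3, BUB1, TTK, TPX2, RRM2, SMC1A and UBE2E2 were named after their values were seen. The profiles nearest to CDC20, UBE2C and CDC16 were the 5 with the smallest distance each. Promoter sequences came from RefSeq (GRCh38.p14).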

Additional observations from a re-analysis of the deposited data

Results flagged for a closer look

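Effects of the 2 shRNAs differed in the direct comparison for 3 genes of the lists that act with the complex, each lower with shCENPA2. They were 2 of the 30 substrates and 1 of the 7 checkpoint genes tested. None passed among the 10 other core subunits, 6 separase and cohesin genes, 31 other conjugating enzymes and 9 SCF genes. Over all genes tested, 1.03% were lower with shCENPA2 and 0.39% were higher. MAD2L1, which binds CDC20 at the spindle checkpoint, differed by a log2 value of -0.677 (limma adjusted p = 0.036). TPX2, a spindle assembly factor that the complex destroys, differed by -0.456 (adjusted p = 0.0348). RRM2, a ribonucleotide reductase subunit, differed by -0.465 (adjusted p = 0.0406). Among the substrates 0 passed in this comparison when either shNT library, either shCENPA1 library or the second shCENPA2 library was left out, and MAD2L1 did not pass without either shCENPA1 library or the second shCENPA2 library. Groups of 2 libraries are too small for a test of single outlying libraries.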

How the results depend on the processing

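Of 570 values of the 10 genes under the alternatives, 527 kept their direction and side of the threshold, 16 newly passed, 3 no longer passed (all UBE2S with shCENPA2, among them limma without a trend at adjusted p = 0.0595) and 24 changed sign, none of them of a value that passed. PTTG1, UBE2C, CDC20 and FBXO5 passed with both shRNAs under every alternative run. With shCENPA2 against shCENPA1 the count of the 10 genes lower was 0, but 4 with 4 lanes as replicates, 1 with lane 7 alone, 1 with median-centred libraries, 1 with only the 2 groups compared and 1 with voom, and 0 to 2 with a library left out. Sign changes with shCENPA1 were CDC16 at -0.0239 (lane 8) and -0.0281 (quantile normalization), and ANAPC11 at 0.00908 (lane 7), 0.00257 (median-centred) and 0.00563 (quantile); with shCENPA2 CDC16 was at 0.0201 (lane 7) and 0.0139 (median-centred). With a library left out, log2 fold changes with shCENPA1 ran from -0.132 to 0.135 for CDC16, -0.469 to 0.082 for ANAPC1 and -0.103 to 0.065 for ANAPC11; with shCENPA2 from -0.085 to 0.210 for FZR1, -0.052 to 0.035 for CDC16, -0.012 to 0.191 for ANAPC1 and -0.126 to 0.017 for ANAPC11; and between the shRNAs from -0.290 to 0.0054 for FZR1, -0.143 to 0.124 for CDC16, -0.034 to 0.221 for CDC27 and -0.119 to 0.049 for ANAPC11. The cause of these changes was not tested.

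With a replicate block in the fit, 4, 5 and 0 of the 10 genes were lower in the 3 comparisons and 2, 4 and 0 were called, as without it. Under the block, 0 of the substrates in place of 2 and 0 of the checkpoint genes in place of 1 differed between the shRNAs, and CCNF did not pass with shCENPA1. The library numbers share no culture or day in the labels, and libraries of the same number did not deviate together (correlations -0.0641, -0.0952 and -0.145), so they were not taken as pairs. Over all genes, 651 were lower with shCENPA1, 293 to 419 with a library of the compared groups left out and 2603 with lanes as replicates; with shCENPA2 the 1535 became 876 or 877 without a shNT library and 3546 with lanes. Of separase and cohesin, 2 and 5 were lower, 1 and 2 with limma without a trend, and 4 with voom with shCENPA1. With lanes as replicates, 25 of the substrates differed between the shRNAs. Adding 1 to RPKM left 104 and 254 genes called lower in place of 268 and 651. With lanes as replicates, which counts technical repeats, FZR1 was higher with shCENPA1 (adjusted p = 0.0496) and CDC27 lower with both (0.00749 and 0.0456). With 2 libraries a group, differences of the core subunits inside the intervals given are not excluded.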
